A study of Vitis vinifera with 74 samples.

Results

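The response of grapevine leaves to abscisic acid (ABA) at 24 h after spraying was taken from 8 of the 74 samples of the series: the 4 libraries labelled leaf, ABA and 24 h, and the 4 labelled leaf, control and 24 h. All were chosen by their labels. The series measured the cultivar Cabernet Franc (Vitis vinifera) in an acclimation experiment on leaves (40 samples) and a deacclimation experiment on buds (34 samples). Transcripts were counted from tags at their 3′ ends (QuantSeq), so a gene's count does not grow with its length. ABA leaves were sprayed at noon to runoff with S-ABA at 500 mg per litre (1.9 mM) and 0.05% Tween-20, a surfactant. Control leaves were sprayed with deionized water and the same surfactant. The vines were potted, grew on their own roots in a greenhouse set to 22 °C by day and 19 °C by night, and carried leaves of 95 days at the base node. The layout was a randomized complete block in quadruplicate, but which vine gave which library is not in the labels. The p-values therefore measure the spread between these libraries, which may be technical.

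ABA is the plant hormone of water deficit, seed dormancy and cold hardening. It binds PYR/PYL receptors, which then inhibit PP2C phosphatases. SnRK2 kinases are released from that inhibition and phosphorylate, among others, transcription factors of the ABF/ABI5 type, which bind ABA-responsive elements in promoters. In leaves ABA is best known for closing stomata, for raising transcripts of LEA proteins and of sugar and wax metabolism, and for lowering transcripts of growth and photosynthesis. This pathway is given as background only. None of the 42413 gene identifiers in the deposited table occurs in the gene table used here, and the deposited table holds no names. No list of pathway genes or leaf markers could therefore be formed, the labelled tissue was not checked against its markers, and changed genes are described as groups, by level, by library and by time. No sequence is shown for the same reason.

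The 4 control libraries held 2097138, 2244901, 2046921 and 1513461 counts (replicates 1 to 4), and the 4 ABA libraries held 1964131, 1596340, 1370275 and 2117667. ABA replicate 1 carries another flow cell code than the other 7 libraries. Its counts stood apart from the other ABA libraries at 24 h: the chi-square per degree of freedom over genes was 19.2 to 21.7 in the 3 pairs that include it. The 3 pairs of the other ABA libraries gave 5.42 to 8.17, and the 6 pairs of controls gave 5.32 to 9.16. A value of 1 would be sampling noise alone, so no pair of libraries was a repeat of one library. Counts of called genes, and the medians of these genes at other times, are given with it and without it or its flow cell. Abundance before treatment, groups by time of call and levels by library are given for the full lists only.

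At 24 h, 258 genes were higher and 152 genes were lower in ABA than in control leaves, of 13378 tested. These are the genes with an adjusted p under 0.05 in edgeR's quasi-likelihood test, fitted over all 40 leaf libraries with Benjamini-Hochberg adjustment. The called genes were 3.06% of those tested, 1.93% higher and 1.14% lower. They are called the raised and the lowered genes below. The raised genes had a median log2 change of 1.27 (from 0.43 to 8.53), and 167 of them changed at least 2-fold, 61 at least 4-fold, 20 at least 8-fold and 10 at least 16-fold. The lowered genes had a median of -0.92 (sizes from 0.39 to 4.84), and 62 of them changed at least 2-fold, 10 at least 4-fold and 2 at least 8-fold. In a whole leaf, fewer cells of a type and less RNA per cell cannot be told apart.

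**Figure D1:**
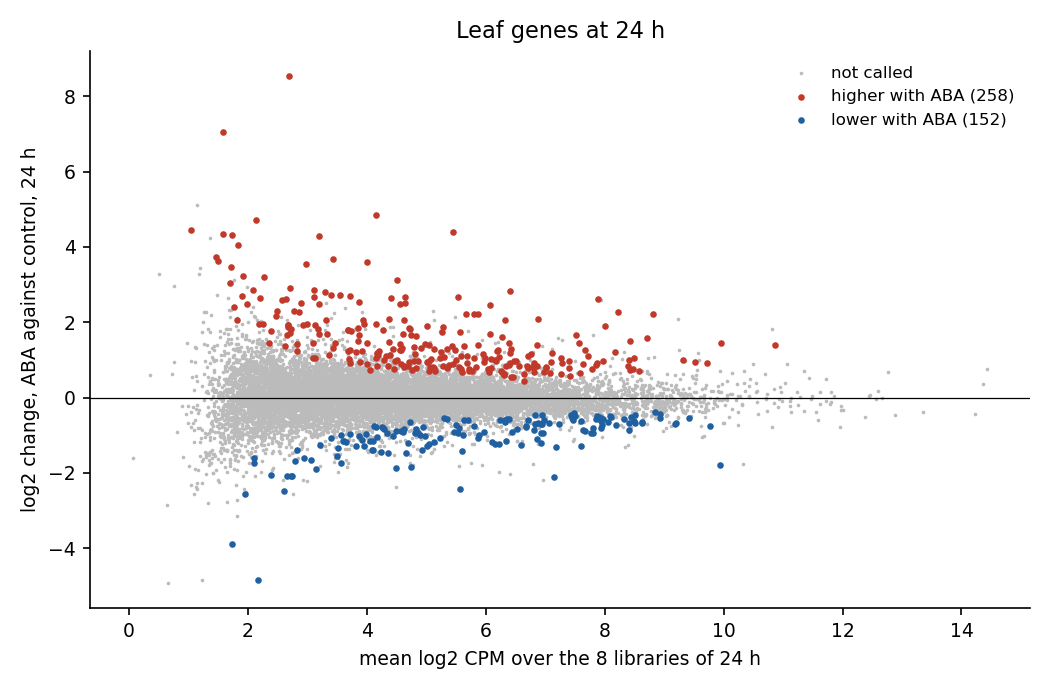
Each point is 1 of 13378 tested genes. The horizontal axis is the mean log2 CPM (reads of a gene relative to the library's TMM-scaled total) over the 8 libraries of 24 h, the vertical axis is the log2 change of ABA against control, and colours mark the 258 genes called higher and the 152 called lower. The rises reach 8.53 and the falls 4.84 on the log2 scale.

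All 4 ABA libraries lay above all 4 control libraries for 218 of the 258 raised genes (84.5%), and all 4 lay below for 136 of the 152 lowered genes (89.5%). Over all tested genes, such a separation occurred upward in 5.37% and downward in 4.54%. The raised genes took 1.29 to 1.55% of the tested counts in the 4 controls and 2.71, 3.52, 3.23 and 3.65% in ABA replicates 1 to 4. The lowered genes took 2.41 to 2.70% in the controls and 1.35, 1.45, 1.58 and 1.47% in the ABA libraries. The genes were called from these libraries, so the separation of the treatments is largely set by that choice. The direction of both shares is set by it as well, and the values are given for scale. ABA replicate 1 had the lowest ABA value of both shares.

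The raised and lowered genes differed in how abundant they were before any spray. Mean levels in the 8 pre-treatment libraries, in CPM (reads of a gene relative to the library's TMM-scaled total), had a median of 21.7 CPM for the raised genes, 73.6 CPM for the lowered genes and 19.3 CPM for all tested genes. Tested genes were divided into 3 groups of equal size by that level, at 10.4 and 36.8 CPM. Raised genes came from all of them: 86 from the lowest (1.93% of it), 76 from the middle (1.7%) and 96 from the highest (2.15%). Lowered genes numbered 10 in the lowest (0.224%), 47 in the middle (1.05%) and 95 in the highest (2.13%). The median log2 change of the raised genes was 2.07 in the lowest group, 1.12 in the middle and 0.92 in the highest. For the lowered genes it was -1.89, -1.12 and -0.71. A gene of few counts is called only when its change is large, and a fall from a low level has little room in these counts, so these medians and shares describe the called genes only.

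The abundant end of each group is shown by the 3 genes with the highest mean level at 24 h, whose identifiers are not printed because nothing at hand says what they encode. The most abundant raised gene had 1187 ± 345 CPM in controls and 3122 ± 675 CPM in ABA leaves (SD, n = 4 each), or 1.40 ± 0.27 on the log2 scale (estimate ± SE, edgeR adjusted p = 0.00192). Its ABA libraries, from 2114 to 3517 CPM, all lay above its controls, from 872 to 1553 CPM. The next rose from 614 ± 134 to 1668 ± 438 CPM (log2 1.44 ± 0.29). The third in rank had 633 ± 54.9 CPM in controls and 1202 ± 506 CPM with ABA (log2 0.92 ± 0.22), and its lowest ABA library, at 598 CPM, lay within the control range of 580 to 710 CPM. The most abundant lowered gene had 1923 ± 745 CPM in controls and 553 ± 196 CPM in ABA leaves, or -1.80 ± 0.36 on the log2 scale (edgeR adjusted p = 0.00264). Its highest ABA library held 841 CPM and its lowest control 1211 CPM. The next fell from 1175 ± 137 to 694 ± 224 CPM, and the third in rank changed by -0.55 ± 0.13 on the log2 scale to 565 ± 59.0 CPM.

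A rule named 4 genes: in each direction, among called genes with at least 5 CPM on average and no overlap between treatments, the one with the largest change and the one with the smallest p. The rule was met by 203 raised and 132 lowered genes. What these 4 genes encode is not stated in the files.

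Vitvi18g00784 had the smallest p among the raised genes. It stood at 65.9, 60.1, 56.0 and 47.0 CPM in controls 1 to 4 and at 198, 247, 283 and 239 CPM in ABA replicates 1 to 4. By the naming rule every ABA library was above every control. The second flow cell library was the lowest of the ABA group. The means were 57.3 ± 7.95 and 242 ± 34.9 CPM (SD, n = 4 each), and the log2 change was 2.07 ± 0.20 (edgeR adjusted p = 2.35e-08). Its control means at the 4 times ran from 47.4 to 68.9 CPM, beside 60.6 ± 9.97 CPM before treatment (n = 8). With ABA the mean was 113 ± 27.0 CPM at 2 h, 175 ± 55.6 CPM at 4 h and 151 ± 45.2 CPM at 48 h. The log2 change was 0.71 at 2 h, where it was not called (edgeR adjusted p = 0.233). At 4 h it was 1.89 (edgeR adjusted p = 3.03e-07) and at 48 h 1.46 (edgeR adjusted p = 4.84e-05). The change at 24 h exceeded that at 2 h by 1.36 on the log2 scale (edgeR adjusted p of the difference = 0.0231).

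Vitvi05g00204 had the largest rise. Controls 1 to 4 held 0.474, 0, 0 and 0 CPM, and ABA replicates 1 to 4 held 9.23, 52.6, 18.4 and 198 CPM. The gene was thus at or near 0 without ABA, and its 4 ABA libraries averaged 69.5 ± 87.5 CPM, an SD larger than the mean. The 4 controls held 1 count in all, and the ratio of ABA to control was 594 with an exact 95% interval of 106 to 23505 that covers counting error only. Without the highest ABA library the ratio was 201 (35.3 to 7984). The fitted log2 change was 8.53 ± 1.83 (edgeR adjusted p = 0.0116); its size depends on the prior count. The call was lost without control replicate 1 (edgeR adjusted p = 0.0532) and without control replicate 2 (edgeR adjusted p = 0.0530). It was also lost in the compared groups alone (edgeR adjusted p = 0.0738), in the 32 libraries after treatment (edgeR adjusted p = 0.0704), and with replicate 2 or 4 left out of both groups (edgeR adjusted p = 0.0804 and 0.0973). Over 21 alternatives the adjusted p ranged from 0.00141 to 0.0973. No count was seen in any library at 2 h, and 3 counts in 1 ABA library at 4 h. At 48 h ABA libraries held from 3.50 to 232 CPM with no count in controls (edgeR adjusted p = 0.0149).

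Vitvi08g00768 had the largest fall. Controls 1 to 4 held 20.9, 11.8, 13.5 and 10.2 CPM, and ABA replicates 1 to 4 held 0, 0, 1.53 and 0.494 CPM. By the naming rule the treatments did not overlap. In all, 113 control counts stood against 3 ABA counts. That is a ratio of 0.03 with an exact 95% interval of 0.00609 to 0.0899 that covers counting error only. Without the highest ABA library, replicate 3, the ratio was 0.0123 (0.000309 to 0.0699) and the fitted log2 change -5.90. The fitted log2 change was -4.84 ± 0.80 (edgeR adjusted p = 0.00038). Controls averaged 14.3 ± 5.47 CPM at 2 h and 14.4 ± 5.60 CPM at 4 h, beside 2.79 ± 2.05 and 1.58 ± 1.35 CPM with ABA. The log2 change was -2.39 at 2 h (edgeR adjusted p = 0.106), -3.16 at 4 h (edgeR adjusted p = 0.00591) and -3.11 at 48 h (edgeR adjusted p = 0.0146). The difference between the changes at 24 h and 2 h, -2.45 on the log2 scale, was not called (edgeR adjusted p = 0.302).

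Vitvi06g00613 had the smallest p among the lowered genes. It stood at 295, 289, 265 and 263 CPM in controls 1 to 4 and at 154, 153, 130 and 162 CPM in ABA replicates 1 to 4. The spread within each group was small beside the gap between them: 278 ± 16.6 against 149 ± 13.7 CPM. The log2 change was -0.90 ± 0.13 (edgeR adjusted p = 4.78e-05). It was -0.33 at 2 h (edgeR adjusted p = 0.589), -0.42 at 4 h (edgeR adjusted p = 0.0904) and -0.82 at 48 h (edgeR adjusted p = 0.000375). Its control mean was 186 ± 13.7 CPM at 48 h, below the 24 h controls, and the ABA mean at 48 h was 105 ± 12.5 CPM. Across the 21 alternatives, Vitvi18g00784, Vitvi08g00768 and Vitvi06g00613 were called in every one.

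**Figure D2:**
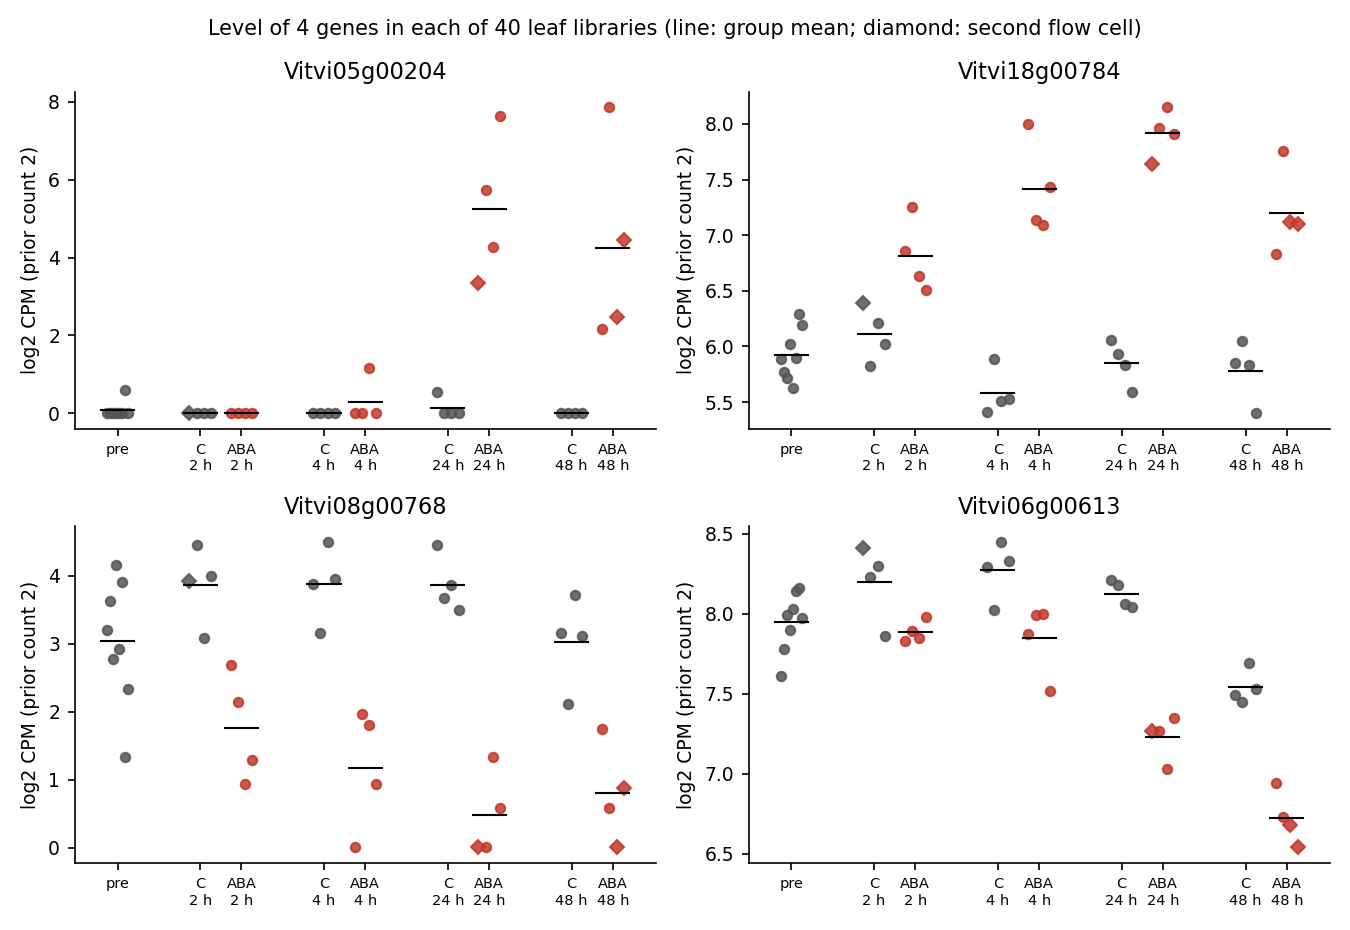
Level of the 4 named genes, as log2 CPM with a prior count of 2, in each of the 40 leaf libraries by treatment (C, control) and time; each point is a library, lines are group means and diamonds mark the second flow cell. At 24 h the ABA and control points of all 4 genes are apart, which the naming rule required. Vitvi05g00204 is at or below 1.25 CPM in every library before 24 h.

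The genes called at 24 h were next followed at the other times, each of which has its own ABA and its own control libraries. At 48 h the raised genes had a median log2 change of 0.81, and 254 of 258 (98.4%) had the sign of 24 h, beside a median of 0.01 over all tested genes. At 4 h the median was 0.53 with 214 of the same sign (82.9%), and at 2 h it was 0.09 with 148 (57.4%). ABA changed 0.0972% of tested genes at 2 h, 1.56% at 4 h and 2.1% at 48 h, and it raised 0.0897, 0.882 and 1.47% at these times. Of the 258 raised genes, 9 were also called higher at 2 h (3.49% of them and 75% of the 12 genes called at 2 h). At 4 h 50 were (19.4%, and 42.4% of the 118), and at 48 h 88 were (34.1%, and 44.9% of the 196). None was called lower at any of the other 3 times. Such calls were rare among all tested genes as well, at 0.00747, 0.68 and 0.635% at 2, 4 and 48 h. Without ABA 24 h replicate 2, the count shared with 4 h was 33.

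The lowered genes were at their 24 h sign at 48 h in 144 of 152 cases (94.7%), with a median log2 change of -0.57. At the earlier times the group was near 0, with a median of -0.07 at 4 h (86 of the same sign, 56.6%) and 0.03 at 2 h (68, 44.7%). ABA lowered 0.00747% of tested genes at 2 h, 0.68% at 4 h and 0.635% at 48 h. None of the 152 was called lower at 2 h, 12 were at 4 h (7.89%, and 13.2% of the 91 called there) and 30 were at 48 h (19.7%, and 35.3% of the 85). The median at 2 h was -0.11 without ABA 24 h replicate 1. The median at 4 h was -0.0039 without ABA 24 h replicate 3, -0.27 without ABA 24 h replicate 1 and -0.28 without control 24 h replicate 2. The count of 12 was 5 without ABA replicate 2 or control replicate 1 and 7 without ABA replicate 3 or 4 or control replicate 3 or 4.

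The 4 libraries of the second flow cell bear on these values: ABA 24 h replicate 1, ABA 48 h replicates 3 and 4, and control 2 h replicate 1. Without them, 273 genes were raised and 120 lowered at 24 h, and 205 and 85 of these were among the 258 and 152. The raised genes of that fit had medians of 0.05, 0.55 and 0.94 at 2, 4 and 48 h, and the lowered genes had -0.01, -0.16 and -0.57. At 48 h the sign of 24 h held in 267 of the 273 and in 116 of the 120. Across all tested genes, the log2 changes at 24 h correlated with those at 48 h at r = 0.62, with those at 4 h at 0.15 and with those at 2 h at -0.09. Without the second flow cell the values were 0.53, 0.29 and 0.10. Genes are not independent replicates, and no test is attached to these correlations.

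**Figure D3:**
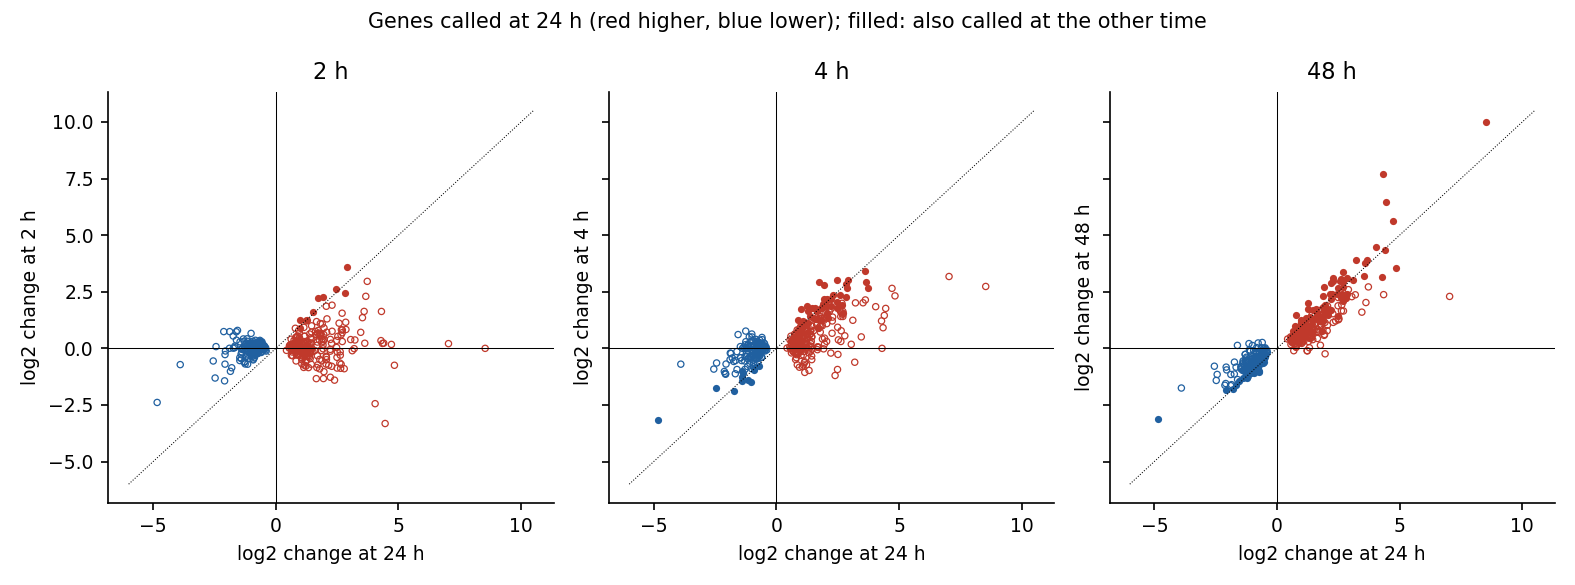
Log2 change at 2, 4 and 48 h (vertical axes) against the log2 change at 24 h (horizontal axes) for the 258 raised (red) and 152 lowered (blue) genes; filled points were called the same way at the other time and the dotted line is equality. At 48 h 254 raised and 144 lowered genes have their 24 h sign, and at 2 h 148 and 68 do.

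Sorted by where else they were called, the raised genes fell into 34 called also at 4 and 48 h, 16 at 4 h but not 48 h, 54 at 48 h but not 4 h, and 154 (59.7%) at neither. Beside these counts, 0.882% of tested genes were called higher at 4 h and 1.47% at 48 h, and 0.68 and 0.635% lower. The sorting used the calls at 4, 24 and 48 h, so medians of the sorted groups at those times follow largely from it. The 34 had median log2 changes of 0.70, 1.82, 2.00 and 1.72 at 2, 4, 24 and 48 h. The 154 had 0.03, 0.28, 1.09 and 0.59, and 150 of them had the sign of 24 h at 48 h. A gene that misses the threshold at another time has not been shown to differ there. By the test of that difference, only 13 of the 154 differed in ABA effect between 24 h and another time. Among all tested genes, 0.164% differed from 2 h, 0.0822% from 4 h and 0% from 48 h. The test uses the 24 h libraries that made the lists, so counts of differing genes in the sorted groups follow partly from the choice of genes. Among the lowered genes, 2 were called also at 4 and 48 h, 10 at 4 h only, 28 at 48 h only and 112 (73.7%) at neither. The 112 had a median of -0.83 at 24 h and -0.45 at 48 h, 104 of them had the 24 h sign at 48 h, and 2 differed between times by test. The small group called at 2, 4, 24 and 48 h held 6 raised genes, with medians of 1.95, 2.27, 1.72 and 1.47 at these times. Its genes were chosen by their calls at these times, so the medians follow largely from that choice. At 2 h, 0.0897% of tested genes were called higher.

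Read from the other times toward 24 h, the values did not depend on the choice made at 24 h. The 196 genes called higher at 48 h had a median log2 change of 1.04 at 24 h, and 189 (96.4%) were positive there. All 85 genes called lower at 48 h were negative at 24 h, with a median of -0.60. Of the 118 genes called higher at 4 h, 106 (89.8%) were positive at 24 h, with a median of 0.90. Of the 91 called lower at 4 h, 64 (70.3%) were negative at 24 h, with a median of -0.28. All 12 genes called higher at 2 h were positive at 24 h, with a median of 1.38. The 1 gene called lower at 2 h, at -1.67 there, was at 0.40 at 24 h. Without the second flow cell, 116 genes were called higher and 28 lower at 48 h, and all of both groups had that sign at 24 h (medians 1.72 and -0.65).

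The difference in ABA effect between times was tested for every gene. Between 24 h and 2 h, 22 genes differed (0.164% of those tested). In 18 of them (0.135%) the effect was higher at 24 h, and 17 of the 18 were raised genes, with medians of 1.56 at 24 h and -0.58 at 2 h. In the other 4 (0.0299%) it was lower, with medians of -1.44 and 0.58, and all 4 were lowered genes. Between 24 h and 4 h, 11 genes differed (0.0822%). In 8 the effect was higher at 24 h (0.0598%, medians 0.96 and -0.73), and 6 of these were raised genes. In 3 it was lower (0.0224%, medians -1.25 and 0.61), and 2 of these were lowered genes. Each difference is computed from the 24 h libraries that also made the raised and lowered lists. The overlaps with the lists and the medians of opposite sign therefore follow largely from the choice of genes. The 22 became 86 without ABA 24 h replicate 3, 12 without control 24 h replicate 2 and 3 without control 24 h replicate 4. ABA 24 h replicate 1 and control 2 h replicate 1 are of the second flow cell. Both enter the difference between 24 h and 2 h with the same sign, so a flow cell offset would add up in it. The 22 became 24 without the second flow cell and 43 with flow cell as a term, and the flow cell itself was not tested. The 11 became 21 without ABA 24 h replicate 2, 32 without ABA replicate 3, 7 without ABA replicate 1, 6 without ABA replicate 4, 4 without control replicate 2 and 5 without control replicate 4. Between 24 h and 48 h, no gene differed by edgeR (0% of those tested) or by DESeq2. The lowest edgeR adjusted p was 1, and 454 genes (3.39%) had an unadjusted p under 0.05. The median SE of that difference was 0.391 on the log2 scale, so changes of that order between 24 and 48 h were not detectable in most genes. Larger ones could go unseen too: for Vitvi18g00784 the difference was 0.61 ± 0.28 (estimate ± SE) and was not called.

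Library by library, the median level of the raised genes, as the log2 difference from the mean of the 24 h controls, was 1.03, 1.31, 1.17 and 1.26 in ABA 24 h replicates 1 to 4 and -0.08 to 0.08 in the controls of 24 h. The 24 h values are set by the choice of genes and are given for scale. The 4 libraries of ABA 48 h had 0.60, 1.24, 0.92 and 0.82, all above the 48 h controls at 0.02 to 0.12. The ABA 4 h libraries had 0.26 to 0.51, also above their controls at -0.21 to -0.0039. The ABA 2 h libraries, from -0.02 to 0.19, overlapped the 2 h controls, from -0.07 to 0.08. For the lowered genes, ABA 48 h libraries had -0.55, -0.80, -0.78 and -0.77, below the 48 h controls at -0.27 to -0.22. At 4 h (-0.18 to 0.12 with ABA, -0.03 to 0.15 in controls) and at 2 h (-0.15 to 0.02, and -0.18 to 0.12) the treatments overlapped. The pre-treatment libraries ran from -0.14 to 0.23 for the raised genes and from -0.28 to 0.13 for the lowered genes.

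**Figure D4:**
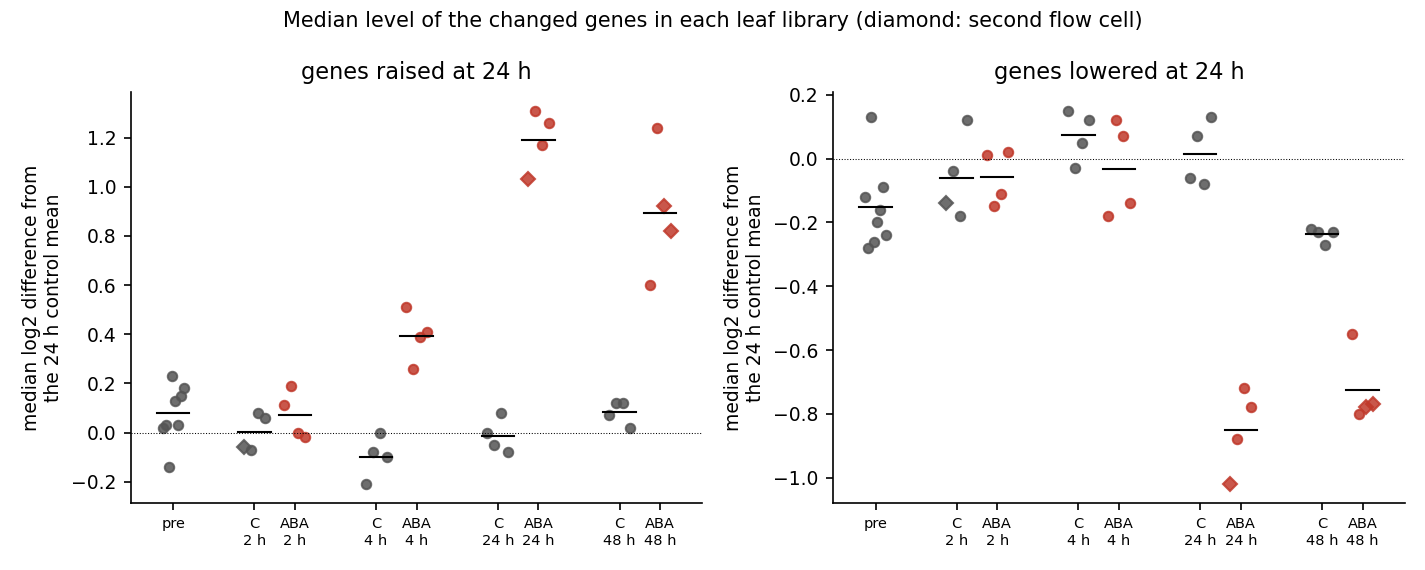
Median over the 258 raised genes (left) and the 152 lowered genes (right) of the log2 difference from the mean of the 24 h controls, in each leaf library; lines are group means and diamonds mark the second flow cell. Treatments separate at 4, 24 and 48 h for the raised genes and at 24 and 48 h for the lowered genes.

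Control leaves changed with time as well, and the genes that ABA changed at 24 h took part. From before treatment to 4 h, 14.7% of tested genes changed in control leaves, 7.22% upward and 7.47% downward. Of the raised genes, 18 rose (6.98%) and 56 fell (21.7%), with a median log2 change of -0.29. Of the lowered genes, 49 rose (32.2%) and 13 fell (8.55%), with a median of 0.27. Both groups were more abundant than tested genes in general, and abundance was not matched in these shares. Without ABA 24 h replicate 2 the lowered genes' median was 0.08. Without the second flow cell, 68 of 273 raised genes fell and 41 of 120 lowered genes rose. At 48 h few changes were called in controls: 0.254% of tested genes differed from pre-treatment, 0.0448% higher and 0.209% lower, and of the 410 genes 1 fell, a lowered gene. Control leaves at 24 h share their libraries with the ABA comparison. Against pre-treatment, 2.92% of tested genes changed there, 1.43% higher and 1.49% lower, and the medians were -0.11 for the raised and 0.17 for the lowered genes. Spraying was at noon, so leaves of 2 and 4 h were taken later in the day than those of 24 and 48 h.

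The calls at 24 h were also followed in libraries that had not made them. Genes were called again with one replicate number left out of both treatments at 24 h, and measured in the pair left out. Each call compared the remaining 6 libraries of 24 h, in a fit over all remaining leaf libraries. Leaving out replicates 1 to 4 called 179, 91, 176 and 86 raised genes. Their median log2 differences in the left-out pair were 0.72, 1.40, 0.89 and 1.33, and 87.6, 97.8, 93.1 and 97.7% of those with a value were positive there. The same fits called 60, 40, 149 and 38 lowered genes, with medians of -0.53, -0.67, -0.22 and -0.83 in the left-out pair and 85, 90, 76.5 and 86.8% negative. Of all tested genes, 49.9 to 51.2% were positive in these pairs. Replicate pair 1 holds the second flow cell library, and its median for raised genes was the lowest of the 4. Replicate pair 3 had the smallest size for lowered genes.

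**Figure D5:**
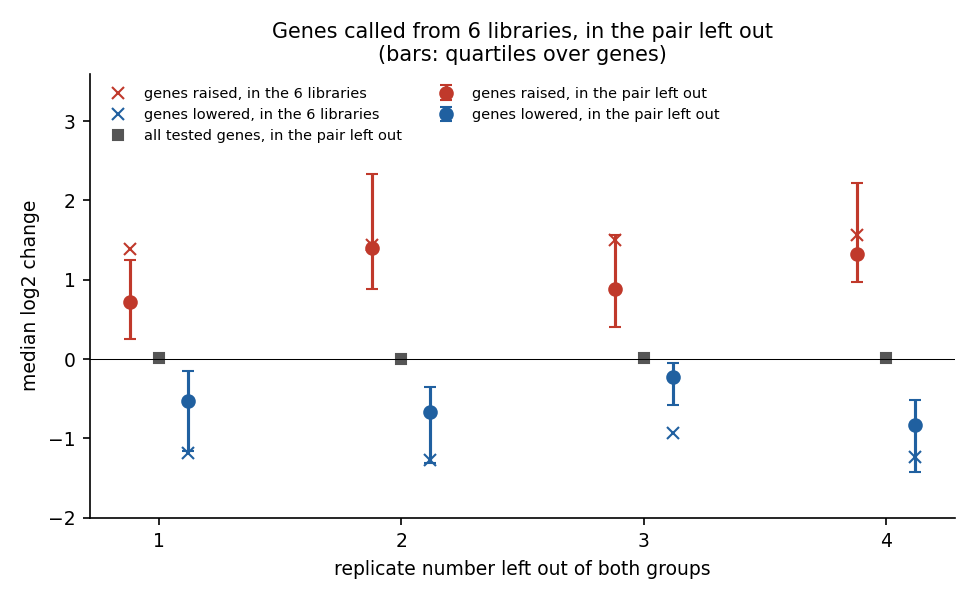
Median log2 change (vertical axis) of genes called without the replicate number (horizontal axis) that was left out of both 24 h groups. Circles with quartile bars are the pair left out. Crosses are the 6 libraries of 24 h compared in the call, and squares are all tested genes. The raised genes reach 0.72 to 1.40 and the lowered genes -0.22 to -0.83 in the pair left out.

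A smaller share of the lowered than of the raised calls was kept without ABA replicate 1, and leaving out other libraries also cost lowered calls. Without ABA replicate 1, 237 genes were raised and 84 lowered, and 201 of the 258 (77.9%) and 63 of the 152 (41.4%) were called again. This fit holds the 24 h comparison within the first flow cell. The 89 lowered genes that were not called again had a median log2 difference of -0.34 between replicate 1 and the mean of ABA replicates 2 to 4, and of -0.15 in the control 2 h library of that flow cell against its own group. For the 57 raised genes that were not called again the medians were 0.37 and 0.20. The signs in replicate 1 follow from choosing genes whose call needed it. Over all 258 raised genes the median difference of replicate 1 from replicates 2 to 4 was -0.26 (79 genes above 0), over all 152 lowered genes -0.23, and over all tested genes -0.02. In the control 2 h library the medians were -0.01 for all raised, -0.10 for all lowered and 0.01 for all tested genes. With flow cell as a term in the fit, 325 genes were raised and 171 lowered. Of the reported genes, 233 of the 258 (90.3%) and 129 of the 152 (84.9%) were called again in that fit. The flow cell itself was not tested. The raised count was 169 without ABA replicate 2, 140 without control replicate 2 and 170 without control replicate 4. The lowered count was 98 without ABA replicate 2, 99 without ABA replicate 4, 82 without control replicate 2 and 86 without control replicate 4. Of the 152, 46.1, 53.3, 50.7 and 53.9% were called again in these fits, in that order. The share was 75% without ABA replicate 3, 68.4% without control replicate 1 and 70.4% without control replicate 3. In all 8 fits that leave out 1 library, 111 of the raised genes (43%) and 40 of the lowered genes (26.3%) were called, with median log2 changes of 1.42 and -1.12.

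With replicate 1 included, the spread within the ABA group was larger than within controls. The median SD of log2 CPM over all tested genes was 0.36 in ABA and 0.28 in control leaves at 24 h, and 0.27 in ABA leaves without replicate 1. For the raised genes the 3 values were 0.35, 0.29 and 0.26, and for the lowered genes 0.31, 0.23 and 0.23. The ABA values without replicate 1 come from fewer libraries than the control values, so they cannot be compared directly with them.

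Bud libraries of 24 h, from cuttings sprayed with S-ABA at 1322 mg per litre (5 mM) or with water, give the level of the named genes in a second tissue. The bud columns of a treatment differed by about sampling noise (chi-square per degree of freedom 1.05 to 1.16) and were added up and counted as 1 sample, so no test was made and intervals cover counting error only. Vitvi05g00204 was at 39.7 CPM with ABA (exact 95% interval 35.1 to 44.8) and 0 in control buds (0 to 0.584). Bud CPM are relative to the plain total of counts. Vitvi18g00784 was at 188 CPM (178 to 199) with ABA and 42.4 CPM (37.5 to 47.8) without. Vitvi08g00768 was at 4.48 CPM (3.02 to 6.39) with ABA and 16.6 CPM (13.6 to 20.1) without. The direction in these 3 genes was that of the leaves. Vitvi06g00613, lower with ABA in leaves, was at 14.8 CPM (12.0 to 18.0) in ABA buds and 6.49 CPM (4.66 to 8.80) in control buds, and both were below its lowest leaf library.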

How the data were processed

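The values are raw read counts per gene, as deposited by the authors, from 85 bp QuantSeq 3′ tags of leaves. FastQC, STAR and DESeq2 appear in the submitters' processing notes. Build, annotation and counting method were not given in the sources used here, so genes with close copies or antisense partners are uncertain. Columns were matched to samples by header name and title; the 8 pre-treatment columns carry repeated names and were used as members of their group. Of 42413 identifiers, 13378 passed filterByExpr (minimum count 10), with 99.4% of leaf counts. Leaf libraries held 1321798 to 2414909 counts. All 40 libraries were fitted as 9 groups in edgeR 4.0.16 (R 4.3.3; TMM, robust glmQLFit, Benjamini-Hochberg, threshold 0.05). Alternatives were DESeq2 1.42.0, other scaling, no filter, fewer libraries, flow cell and replicate terms, a non-robust fit and leaving out libraries; the non-robust fit, leaving out a replicate number in both groups, and following genes called at other times to 24 h were chosen after seeing the data. The scripts were tested on simulated data. CPM are counts scaled to TMM library sizes. At most 2 rising and 2 falling identifiers are named, by largest change and smallest p. The members and lists were chosen with earlier results of these data known. Replicate numbers were not taken to pair libraries: deviations of same-numbered ABA and control libraries correlated at 0.00012, 0.08, -0.06 and -0.05. Flow cells are read from codes in the sample descriptions.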

Additional observations from a re-analysis of the deposited data

Results flagged for a closer look

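In groups of 4 to 10 libraries, a library was marked when its gap to the next exceeded Dixon's critical value. For normally distributed values chance does this in about 1 in 20 groups. A group with counts in 1 library only is always marked, so that rate does not hold here. Of 54 groups tested, 6 had such a marked library, and the number is not set against the rate. For Vitvi05g00204 these were 1 pre-treatment column at 0.508 CPM, ABA 4 h replicate 3 at 1.25 CPM and control 24 h replicate 1 at 0.474 CPM, each with no count in the rest of its group, and ABA 48 h replicate 2 at 232 CPM. For the median level of the lowered genes they were 1 pre-treatment column at 0.13 and ABA 48 h replicate 1 at -0.55 on the log2 scale.

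The ABA effect differed by its own test between 24 h and 2 h in 22 genes and between 24 h and 4 h in 11 genes. Vitvi18g00784 was among the former (edgeR adjusted p = 0.0231). The difference between 24 h and 2 h has second flow cell libraries in ABA 24 h and in control 2 h.

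In buds at 24 h, which no leaf comparison uses, Vitvi05g00204 stood at 39.7 CPM, Vitvi18g00784 at 188 CPM and Vitvi06g00613 at 14.8 CPM with ABA, each above the interval of the control buds. For Vitvi06g00613 the bud difference has the sign opposite to that in leaves; the difference between tissues was not tested, since each bud treatment was 1 sample.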

How the results depend on the processing

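Of 500 recomputed values for 26 results, 393 kept their side of the threshold or, where they carry no call, moved by less than the margin, 101 moved and 6 lost a call. No called value changed sign, but medians near 0, which carry no call, did under some settings: those of the raised genes at 2 h and in control 48 h, and those of the lowered genes at 2 h, at 4 h and in control 48 h. The cause of a move was not tested. The margin is wide for counts. The 410 genes called at 24 h became 586 by DESeq2 and 292 from the compared groups alone, and these lay within the margin. So did the 258 raised genes, which became 353 by DESeq2 and 203 from the compared groups alone. Genes lowered at 24 h numbered 233 by DESeq2 and 89 from the compared groups alone. Genes whose effect differed between 24 h and 2 h numbered 157 by DESeq2, 13 with no count filter and 43 with flow cell as a term. Between 24 h and 4 h they numbered 165 by DESeq2, 17 from the compared groups alone, 6 without the second flow cell, 34 with the replicate block and 24 in the same 32 libraries unblocked. With the replicate block, 248 genes were raised and 172 lowered at 24 h, beside 249 and 173 unblocked; 1 of 8 libraries correlated best with its own number. With no count filter, the raised genes' median was 0.74 in ABA against control at 4 h and -0.37 in control 4 h against pre-treatment, and 6 lowered genes were called at 4 h. From the compared groups alone, 27 raised and 3 lowered genes were called the same way at 48 h, and the lowered genes' medians were -0.06 at 2 h, -0.21 at 4 h and 0.09 in control 4 h against pre-treatment. Lowered genes called at 48 h numbered 58 by DESeq2 and 11 without the second flow cell.

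Leaving out 1 library, or a replicate number in both groups, gave 124 to 359 genes called at 24 h, 86 to 237 raised and 38 to 149 lowered. Genes that differed numbered 2 to 86 between 24 h and 2 h and 0 to 32 between 24 h and 4 h. The raised genes' medians ran from -0.02 to 0.22 at 2 h, 0.46 to 0.85 at 4 h, 0.78 to 1.12 at 48 h and -0.38 to -0.28 in control 4 h, with 23 to 51 called at 4 h and 37 to 90 at 48 h. The lowered genes' medians ran from -0.16 to 0.08 at 2 h, -0.34 to 0.05 at 4 h, -0.84 to -0.47 at 48 h, 0.08 to 0.40 in control 4 h and -0.11 to 0.05 in control 48 h, with 4 to 10 called at 4 h and 16 to 33 at 48 h. Depth, from 1370275 to 2244901 counts at 24 h, limits genes of few counts: a count of 0 in a library allows a level of up to 3 counts.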
